A study of Mus musculus with 12 samples.

Results

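The members are 10 genes of the circadian clock: the output genes Dbp and Tef, the period genes Per2 and Per3, the cryptochromes Cry1 and Cry2, the nuclear receptors Nr1d1 and Nr1d2, and the transcription factors Clock and Npas2. They are a list of names, and each was measured by the probe sets that the array annotation assigns to it and to no other gene. The 10 genes had 25 probe sets of the 45101 on the array, of which 23 passed a filter on dim probe sets, and the brightest probe set stood for each gene among 12671 genes tested. All 10 genes passed the filter; the 2 probe sets that did not were 1 each of Per3 and Npas2.

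Total RNA of mouse cerebellum was measured on Affymetrix arrays in 4 groups of 3 mice, 1 array per mouse, at 6 weeks of age on a C57BL/6 background. The first group was MPI 118Q/118Q, a Sca6 knockin with 118 glutamine codons in Cacna1a, and the second its wild type littermates. The third was MPI 11Q/11Q, a knockin with 11 glutamine codons, and the fourth its own wild type littermates. They are called here 118Q knockin, 118Q-line wild type, 11Q knockin and 11Q-line wild type. The title of the series places its subject in early neuroinflammation before Purkinje cell loss, and the labels give no hour of tissue collection and no light schedule.

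In the mammalian clock, CLOCK or its relative NPAS2 pairs with BMAL1, the product of Arntl, and drives genes with E-boxes, among them the Per and Cry genes, Nr1d1, Nr1d2, Dbp and Tef. PER and CRY proteins then repress that drive, while NR1D1 and NR1D2 repress genes with a ROR response element, such as Arntl, Npas2 and Nfil3. DBP and TEF activate genes with a D-box and NFIL3 represses them, and transcripts such as Dbp and Arntl peak at opposite times of day in rodent tissues.

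RefSeq promoters of GRCm38.p6 were matched for 9 of the 10 members, 12 promoters in all, each running from 250 bases before the annotated start to 50 after it; Per2 was not among them. They were searched on both strands for the E-box CACGTG, the E-prime-box CACGTT, the D-box TTATGTAA and the ROR response element TAGGTCA, which do not overlap in the sequences below. Of 32851 promoters in the table, 7.15% held the E-box, 4.68% the E-prime-box, 0.938% the D-box and 2.61% the ROR response element. The sequences of 5 members are shown because they hold, or in the case of Dbp lack, these letters, and that of Nfil3 because its level ran most opposite to Dbp; capitals mark the matches and each sequence is read along the gene's own strand.
Dbp promoter, chr7:45704997-45705296, plus strand: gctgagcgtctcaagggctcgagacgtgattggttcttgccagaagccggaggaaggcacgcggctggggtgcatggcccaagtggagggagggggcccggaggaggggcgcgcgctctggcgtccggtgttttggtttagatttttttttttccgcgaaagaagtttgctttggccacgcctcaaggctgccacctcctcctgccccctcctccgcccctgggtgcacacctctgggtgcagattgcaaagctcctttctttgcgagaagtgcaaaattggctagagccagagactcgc
Tef promoter, chr15:81802423-81802722, plus strand: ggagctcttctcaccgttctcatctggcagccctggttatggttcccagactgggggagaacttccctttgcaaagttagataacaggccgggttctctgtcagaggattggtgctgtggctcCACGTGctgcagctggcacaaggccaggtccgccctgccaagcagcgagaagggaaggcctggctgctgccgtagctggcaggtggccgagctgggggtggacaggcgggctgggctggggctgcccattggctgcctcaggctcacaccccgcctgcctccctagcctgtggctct
Per3 promoter, chr4:151044616-151044915, minus strand: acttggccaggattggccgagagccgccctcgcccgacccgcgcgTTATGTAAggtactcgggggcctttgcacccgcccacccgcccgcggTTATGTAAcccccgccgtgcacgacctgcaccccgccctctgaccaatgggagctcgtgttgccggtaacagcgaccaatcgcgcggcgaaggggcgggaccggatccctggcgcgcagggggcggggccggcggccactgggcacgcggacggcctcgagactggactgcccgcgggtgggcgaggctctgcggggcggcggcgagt
Cry1 promoter, chr10:85185005-85185304, minus strand: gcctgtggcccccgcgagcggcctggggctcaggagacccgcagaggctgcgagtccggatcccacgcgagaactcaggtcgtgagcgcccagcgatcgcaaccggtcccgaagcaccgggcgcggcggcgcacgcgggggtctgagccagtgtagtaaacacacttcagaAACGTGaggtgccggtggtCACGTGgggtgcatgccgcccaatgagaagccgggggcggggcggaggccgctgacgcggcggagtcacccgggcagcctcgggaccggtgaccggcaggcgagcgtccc
Nr1d1 promoter, chr11:98775328-98775627, minus strand: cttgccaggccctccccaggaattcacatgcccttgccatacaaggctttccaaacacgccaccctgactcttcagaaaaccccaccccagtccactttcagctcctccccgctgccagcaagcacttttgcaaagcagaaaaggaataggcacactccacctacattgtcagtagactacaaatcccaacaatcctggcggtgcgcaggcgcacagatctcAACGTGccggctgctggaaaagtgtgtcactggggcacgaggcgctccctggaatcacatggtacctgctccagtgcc
Nfil3 promoter, chr13:52980990-52981289, minus strand: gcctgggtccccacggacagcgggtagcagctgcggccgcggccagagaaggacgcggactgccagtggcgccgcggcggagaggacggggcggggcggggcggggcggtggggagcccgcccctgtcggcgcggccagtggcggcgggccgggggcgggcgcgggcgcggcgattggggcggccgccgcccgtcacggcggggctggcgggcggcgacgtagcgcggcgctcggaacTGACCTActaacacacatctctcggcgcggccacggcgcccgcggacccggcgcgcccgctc
Per3 held 2 D-boxes, first bases at positions -205 and -158 from the start, and Tef an E-box at -127, with another at -138 before its second start. Nr1d1 held an E-prime-box at -28, Cry1 an E-box at -60 and an E-prime-box at -79, and Cry2, not shown, an E-prime-box at -166. Nfil3 held a ROR response element at -12. None of the 4 strings lay in the windows of Dbp, Nr1d2, Clock or Npas2, which says only that these letters are not in those 300 bases.

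Cacna1a, the targeted gene, read 5.67, 5.65 and 5.50 in 118Q knockin, 6.09, 5.54 and 6.19 in 118Q-line wild type, 6.28, 6.42 and 6.17 in 11Q knockin and 6.36, 6.25 and 6.48 in 11Q-line wild type; where its probe set lies relative to the knockin change was not analysed here. Pairs of arrays correlated at 0.980 to 0.995 over all probe sets. The 18S ribosomal RNA signal was 8.56 to 9.23 in 118Q knockin, 9.66 to 10.3 in 118Q-line wild type, 10.1 to 10.4 in 11Q knockin and 10.2 to 10.5 in 11Q-line wild type. Markers of cerebellar cells were present in every group, with granule cell markers averaging 9.05 to 9.50 and Purkinje cell markers 9.02 to 9.86 on the log2 scale. In 118Q knockin against 118Q-line wild type, where 0.189% of all genes were called, limma called 1 of 7 measured Purkinje cell markers lower, 1 of 8 microglial markers higher and 1 of 6 endothelial markers lower, and 0 of the granule cell, astrocyte, oligodendrocyte, choroid plexus and meningeal markers. Choroid plexus markers moved between single arrays, Ttr from 5.26 to 11.9 over all 12. In whole tissue, fewer cells of a type and less RNA per cell cannot be told apart.

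Dbp codes for an activator of D-box genes and was the member with the lowest p in both comparisons between lines. Dbp read 7.21, 6.71 and 6.80 in 118Q knockin and 6.59, 6.92 and 6.92 in 118Q-line wild type. It read 7.71, 7.85 and 7.22 in 11Q knockin and 7.79, 7.16 and 7.40 in 11Q-line wild type. The group means were 6.91 ± 0.27 in 118Q knockin, 6.81 ± 0.19 in 118Q-line wild type, 7.59 ± 0.33 in 11Q knockin and 7.45 ± 0.32 in 11Q-line wild type (SD, n = 3 each). Both 11Q-line means lay above both 118Q-line means, and within a line the knockin and wild type arrays overlapped. In 118Q knockin against 118Q-line wild type Dbp differed by 0.10 ± 0.20 (SE), and in 11Q knockin against 11Q-line wild type by 0.14 ± 0.20, with adjusted p of 0.830 and 0.945 by limma.

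**Figure D1:**
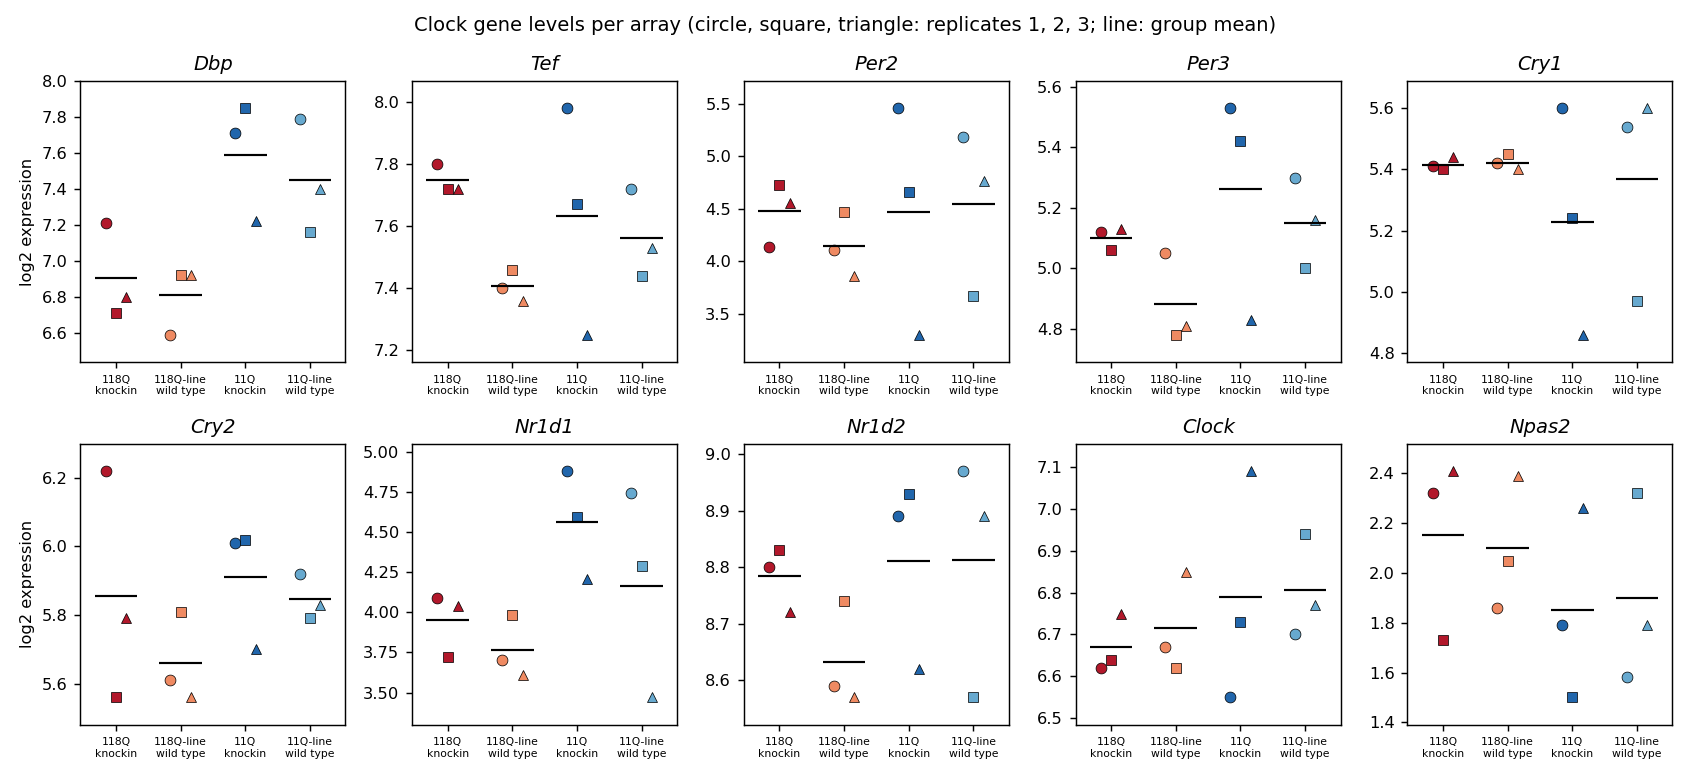
Log2 expression of the 10 clock genes in each array, one panel per gene and its own vertical axis, with groups from 118Q knockin to 11Q-line wild type and a line at each group mean. Both 118Q-line means of Dbp lie under both 11Q-line means, Tef is higher in 118Q knockin than in 118Q-line wild type without overlap, and Cry1 is tight in the 118Q line and wide in the 11Q line.

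Tef codes for the other D-box activator and had the lowest p of the 10 members in the 118Q knockin comparison. It read 7.80, 7.72 and 7.72 in 118Q knockin and 7.40, 7.46 and 7.36 in 118Q-line wild type, with no overlap, and 7.98, 7.67 and 7.25 in 11Q knockin and 7.72, 7.44 and 7.53 in 11Q-line wild type, which overlapped. The 118Q difference was 0.34 ± 0.15 (SE; unadjusted p = 0.0446, adjusted p = 0.256 by limma), so Tef did not pass the test over all genes. A dimmer Tef probe set, 1438033_at, did pass when every probe set was tested on its own: 3.58, 2.63 and 3.24 in 118Q knockin against 2.49, 2.22 and 2.05 in 118Q-line wild type, a difference of 0.90 ± 0.21 (adjusted p = 0.0488). That fit called 2.25% of all 27060 probe sets, 0.469% higher, and 1 of the 23 member probe sets. The third Tef probe set, 1450184_s_at, differed by -0.03 ± 0.18, and the correlations of these 2 with the brightest over 12 arrays were 0.48 and 0.15, so the probe sets of Tef disagreed.

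The period genes are E-box targets that repress CLOCK and BMAL1. Per2 read 4.14, 4.73 and 4.56 in 118Q knockin, 4.11, 4.47 and 3.86 in 118Q-line wild type, 5.46, 4.66 and 3.30 in 11Q knockin and 5.19, 3.67 and 4.77 in 11Q-line wild type. Its arrays within a group differed more than for most genes, the pooled SD of 0.70 lying at percentile 99.6 of all genes. Its 118Q difference was 0.33 ± 0.47 (SE), which overlapped, as did its 11Q difference of -0.07 ± 0.47. Per3 read 5.12, 5.06 and 5.13 in 118Q knockin and 5.05, 4.78 and 4.81 in 118Q-line wild type, higher without overlap by 0.22 ± 0.16 (adjusted p = 0.502 by limma). Its 11Q arrays overlapped, at 5.53, 5.42 and 4.83 in 11Q knockin and 5.30, 5.00 and 5.16 in 11Q-line wild type.

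Per1, the third period gene and no member, read 6.78, 6.95 and 6.82 in 118Q knockin against 6.50, 6.40 and 5.37 in 118Q-line wild type, and 6.30, 6.01 and 5.89 in 11Q knockin against 6.31, 6.05 and 6.11 in 11Q-line wild type. Wild type replicate 3 of the 118Q line was the lowest of its 12 values. The 118Q difference was 0.76 ± 0.24 (SE; adjusted p = 0.128 by limma), and the difference of knockin effects 0.85 ± 0.33 (adjusted p = 0.403). In 118Q knockin against 11Q knockin Per1 was called higher, by 0.78 ± 0.24 (adjusted p = 0.0452), where Dbp was called lower. That call, looked at after seeing the data, held in 13 of 25 alternatives. It ended with no filter (adjusted p = 0.0512), with median centring (adjusted p = 0.0537), with quantile normalization (adjusted p = 0.0617), and without any 1 array of 118Q knockin or 11Q knockin or 11Q-line wild type replicate 1 or 2 (adjusted p 0.0565 to 0.132). When the 18S signal entered as a covariate the sign turned (-0.54 ± 0.42 (SE), adjusted p = 0.594 by limma). In that fit 0% of all genes were called, against 13.7% without the covariate.

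The cryptochromes repress together with the PER proteins. Cry1 read 5.41, 5.40 and 5.44 in 118Q knockin, 5.42, 5.45 and 5.40 in 118Q-line wild type, 5.60, 5.24 and 4.86 in 11Q knockin and 5.54, 4.97 and 5.60 in 11Q-line wild type. Its 118Q-line arrays spanned 0.05 log2 units and its 11Q-line arrays 0.74. Cry2 read 6.22, 5.56 and 5.79 in 118Q knockin, 5.61, 5.81 and 5.56 in 118Q-line wild type, 6.01, 6.02 and 5.70 in 11Q knockin and 5.92, 5.79 and 5.83 in 11Q-line wild type. Replicate 1 of 118Q knockin was the highest of the 12 Cry2 values, and all groups overlapped within their line.

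Nr1d1 and Nr1d2 code for the REV-ERB receptors that repress Arntl. Nr1d1 read 4.09, 3.72 and 4.04 in 118Q knockin, 3.70, 3.98 and 3.61 in 118Q-line wild type, 4.88, 4.59 and 4.21 in 11Q knockin and 4.74, 4.29 and 3.47 in 11Q-line wild type. The highest 118Q knockin array lay under the lowest 11Q knockin array, and the knockin arrays overlapped their own wild types. Nr1d2 read 8.80, 8.83 and 8.72 in 118Q knockin, 8.59, 8.74 and 8.57 in 118Q-line wild type, 8.89, 8.93 and 8.62 in 11Q knockin and 8.97, 8.57 and 8.89 in 11Q-line wild type, which all overlapped within their line. The knockin differences of Nr1d1 were 0.19 ± 0.27 (SE) in the 118Q line and 0.39 ± 0.27 in the 11Q line.

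Clock and Npas2 code for the partners of BMAL1 that drive E-box genes. Clock read 6.62, 6.64 and 6.75 in 118Q knockin, 6.67, 6.62 and 6.85 in 118Q-line wild type, 6.55, 6.73 and 7.09 in 11Q knockin and 6.70, 6.94 and 6.77 in 11Q-line wild type. Npas2 was dim, at 2.32, 1.73 and 2.41 in 118Q knockin, 1.86, 2.05 and 2.39 in 118Q-line wild type, 1.79, 1.50 and 2.26 in 11Q knockin and 1.58, 2.32 and 1.79 in 11Q-line wild type. Groups overlapped for both genes in both lines, with knockin differences between -0.05 and 0.06. Arntl, their partner and no member, read 5.57, 5.77 and 5.69 in 118Q knockin against 5.89, 5.86 and 6.42 in 118Q-line wild type, lower without overlap by -0.38 ± 0.24 (SE; adjusted p = 0.431 by limma).

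Over the 10 members, limma called 0 in 118Q knockin against 118Q-line wild type, where 0.189% of all genes were called, and 1, Tef, had an unadjusted p below 0.05, against 18.7% of all genes. Tef and Per3 were the 2 whose arrays did not overlap, both higher, against 22.4% of all genes not overlapping and 15.1% higher. Their median difference was 0.17, against 0.06 over all genes. In 11Q knockin against 11Q-line wild type 0 were called and 0 had an unadjusted p below 0.05, against 0% and 4.23% of all genes, and no member's arrays were apart, against 10.4%. For the difference of these effects the counts were again 0 and 0, against 0% and 11.0%. The 118Q and 11Q intervals of each member overlapped, as the plot of knockin effects shows, and a missed threshold does not show that the effects are alike.

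**Figure D2:**
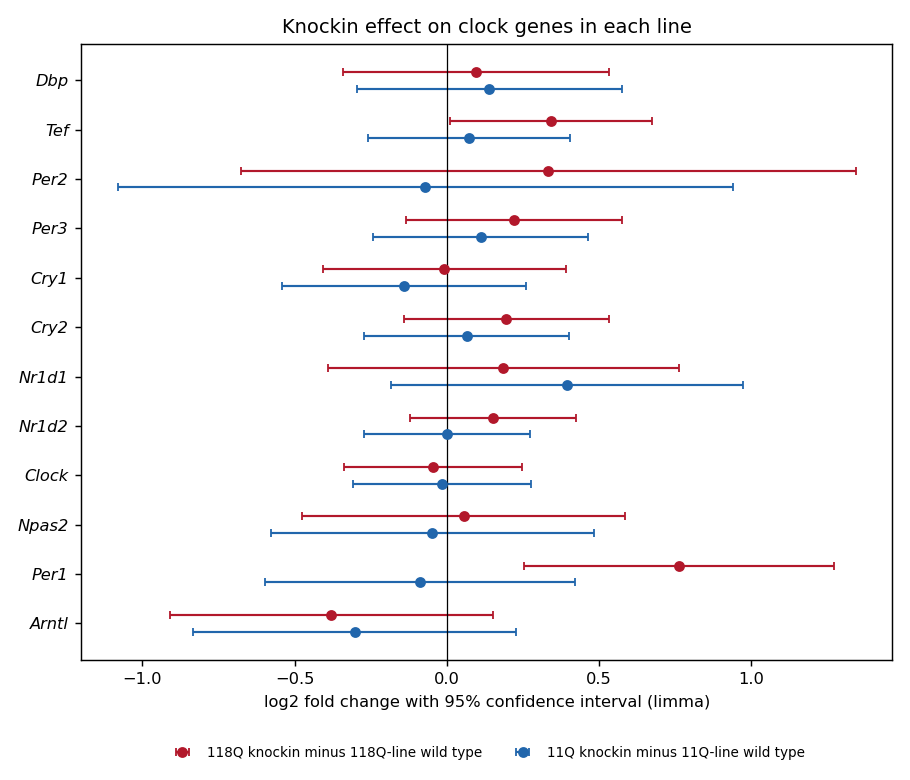
Log2 fold change of each gene with its 95% confidence interval from limma, 118Q knockin minus 118Q-line wild type above and 11Q knockin minus 11Q-line wild type under it, for the 10 members and for Per1 and Arntl. Of the 10 members, the 118Q interval of Tef alone leaves out 0; the interval of Per2 is the widest.

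The comparisons between lines share their arrays with the knockin comparisons, so their values stand side by side. In 118Q knockin against 11Q knockin, Dbp was lower by -0.69 ± 0.20 (SE; adjusted p = 0.0423 by limma), with all 3 arrays of 118Q knockin below all 3 of 11Q knockin. It was the only member of 10 called, against 13.7% of all genes called and 3.60% called lower. Nr1d1 was lower by -0.61 ± 0.27 (unadjusted p = 0.0407, adjusted p = 0.142), also without overlap, against 38.1% of all genes not overlapping and 11.6% lower; 2 members had an unadjusted p below 0.05, both lower, against 30.9% of all genes and 8.32% lower. The call of Dbp held in 16 of 25 alternatives. It ended when the 18S signal entered as a covariate (-0.50 ± 0.51, adjusted p = 0.691 by limma), where 0% of all genes were called. That signal was lower in every 118Q knockin array than in any other array, so the covariate overlaps with the group. The call also ended with Ttr as a covariate (-0.57, adjusted p = 0.0987), with the mean of probe sets (-0.66, adjusted p = 0.0655) and with only the groups compared (adjusted p = 0.0560). It was lost too on leaving out any 1 of 5 arrays: 118Q knockin replicates 2 and 3, 118Q-line wild type replicate 2, and 11Q knockin replicates 1 and 2 (adjusted p 0.0542 to 0.140).

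In 118Q-line wild type against 11Q-line wild type, Dbp was lower by -0.64 ± 0.20 (SE; unadjusted p = 0.00734, adjusted p = 1.00 by limma), again without overlap, and was the member of 10 apart, against 6.44% of all genes not overlapping and 2.44% lower. 0 members were called, as 0% of all genes were, and 1 had an unadjusted p below 0.05, against 2.98% of all genes and 1.08% lower. A comparison added after seeing the data, of the 118Q line with the 11Q line averaged over genotypes, gave -0.66 ± 0.14 for Dbp (adjusted p = 0.0263), the single call among the members, against 6.16% of all genes called and 1.84% called lower. It gave 0.40 ± 0.10 for Nfil3 (adjusted p = 0.0442), the D-box repressor, and -0.50 ± 0.19 for Nr1d1 (adjusted p = 0.118). Nfil3 is no member and was the gene most opposite to Dbp over these same arrays. Its value is therefore not independent of that of Dbp. Adjusted for the 18S signal, Dbp gave -0.54 ± 0.35 (adjusted p = 0.572 by limma) and Nfil3 0.52 ± 0.25 (adjusted p = 0.480). The share of all genes called in that fit was 0.00789%. The call of Dbp held in 11 of 19 alternatives and that of Nfil3 in 7. Dbp also lost it without 118Q knockin replicate 2 or 3, 118Q-line wild type replicate 1 or 2, 11Q knockin replicate 1 or 2, or 11Q-line wild type replicate 1 (adjusted p 0.0503 to 0.0723), and Nr1d1 gained it without 11Q-line wild type replicate 3 (-0.68, adjusted p = 0.0168).

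The other probe sets bear on the same comparison. The second Dbp probe set, 1418174_at, was lower in 118Q knockin than in 11Q knockin by -0.63 ± 0.27 (SE; adjusted p = 0.152 by limma). Unlike the brightest, its arrays overlapped, at 6.35, 5.96 and 6.08 against 6.95, 7.07 and 6.25. Between the wild types it was lower by -0.44 ± 0.27 (unadjusted p = 0.138 by limma). There too its arrays overlapped, at 5.95, 6.19 and 5.49 in 118Q-line wild type and 6.93, 6.15 and 5.88 in 11Q-line wild type. Per3 probe set 1442243_at was called where the brightest was not: 3.41, 2.65 and 2.96 in 118Q knockin against 3.87, 4.03 and 3.71 in 11Q knockin, lower by -0.87 ± 0.24 (adjusted p = 0.0376), in a fit that called 13.6% of all probe sets and 2 of the 23 of the members. Per3 probe sets 1441445_at and 1458176_at were lower too, by -0.64 ± 0.24 (adjusted p = 0.103) and -0.59 ± 0.26 (adjusted p = 0.151), but not called. The brightest Per3 probe set differed by -0.16 ± 0.16, and the dim 1460662_at by -0.0079 ± 0.19. Tef probe set 1438033_at was instead higher in 118Q knockin, by 0.66 ± 0.21 (adjusted p = 0.0563 by limma). So was Per2 probe set 1417603_at, with a mean of only 1.64, by 0.45 ± 0.20 (adjusted p = 0.163), and neither was called. Of the 23 member probe sets, 8 had an unadjusted p below 0.05 by limma, against 30.0% of all probe sets. In 118Q-line wild type against 11Q-line wild type, 1442243_at was lower by -0.72 ± 0.24, with overlapping arrays and no call.

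Measures outside the clock also moved with Dbp. The mean of 8 granule cell markers was 9.05 to 9.24 in 118Q knockin, 9.22 to 9.26 in 118Q-line wild type, 9.38 to 9.50 in 11Q knockin and 9.15 to 9.42 in 11Q-line wild type. Its r with Dbp over 12 arrays was 0.71, the highest among the cell type lists, and was not computed with group means removed. The r was 0.45 for Purkinje cell and 0.45 for endothelial markers. It was -0.16 for astrocyte, -0.20 for oligodendrocyte, -0.23 for choroid plexus, -0.23 for meningeal and -0.41 for microglial markers. The r of the 18S signal with Dbp was 0.55, and 0.13 with group means removed. With the 18S signal as a covariate the line difference of Dbp was -0.54 ± 0.35 (SE; adjusted p = 0.572 by limma), as given above. The part of the granule cell markers in the line difference was not tested. Line and time of collection cannot be told apart, since the labels give no time.

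The single arrays were also read gene by gene. Of the 6 genes Per2, Per3, Dbp, Tef, Nr1d1 and Nr1d2, 11Q knockin replicates 1 and 2 and 11Q-line wild type replicate 1 had 6 above the mean of the 12 arrays, and 0 of the 4 genes Clock, Npas2, Arntl and Nfil3. Replicate 3 of 118Q-line wild type had 0 of 6 and 4 of 4. The other arrays were less clear. Replicate 1 of 118Q-line wild type also had 0 of 6, but 2 of 4. The 118Q knockin arrays had 4, 3 and 3 of 6, with 2, 2 and 3 of 4. Replicate 2 of either wild type had 1 of 6 and 3 of 4. For 11Q knockin replicate 3 the counts were 2 of 6 and 3 of 4, and for 11Q-line wild type replicate 3 they were 4 of 6 and 3 of 4. The 6 and the 4 genes were picked from the clock lists, and not every other clock gene went along. In 11Q knockin replicate 2, Cry1 read 5.24 and Per1 6.01, below their means over 12 arrays of 5.36 and 6.29. Rora, of the positive-limb list, read 8.86 and 8.78 in 11Q knockin replicates 1 and 2. It read 8.78 in 11Q-line wild type replicate 1, all above its median of 8.67. The share of all genes above their mean in these arrays was not computed. These counts describe single arrays, and no groups were formed from them.

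**Figure D3:**
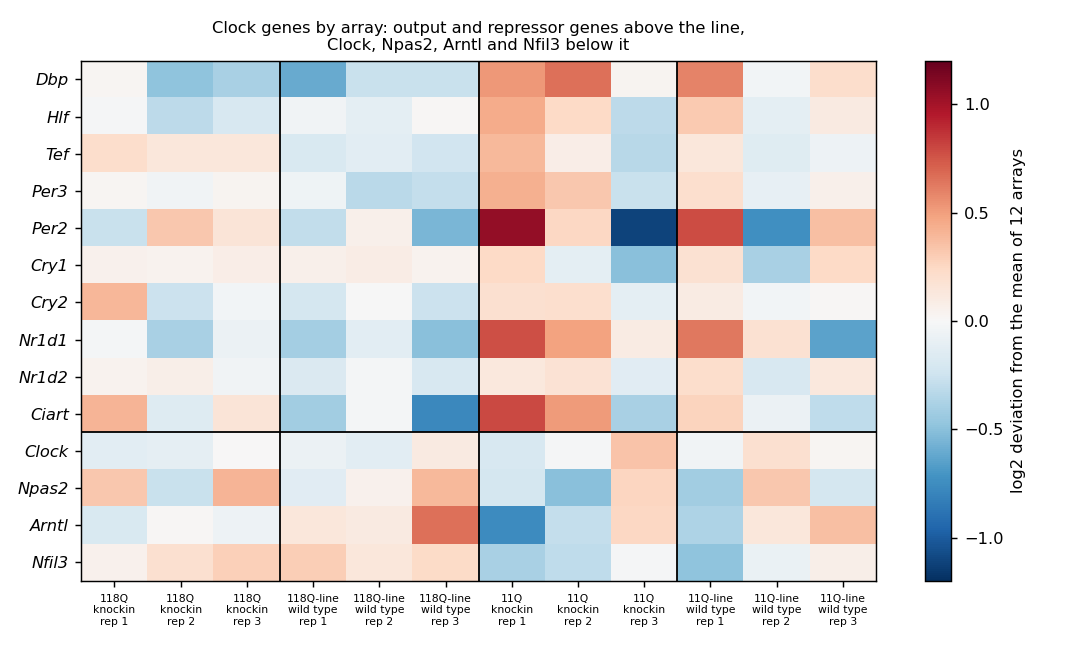
Deviation of each gene (vertical) from its mean over 12 arrays (log2 units, red above, blue below), arrays along the bottom from 118Q knockin to 11Q-line wild type. In 11Q knockin replicates 1 and 2 and 11Q-line wild type replicate 1 most genes over the horizontal line are red and those under it blue.

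Across arrays, without regard to group, Dbp correlated with 4 other members by r. The permutations moved arrays across groups and lines, so their p do not separate these relations from the line difference of Dbp. With group means removed 0 of 9 relations passed adjustment, as given below. Over 12 arrays and 9 relations, Nr1d1 had r = 0.746 (permutation p = 0.00593) and rho = 0.622 (permutation p = 0.0352). Per3 had r = 0.694 (permutation p = 0.0123) and rho = 0.615 (permutation p = 0.0375). Nr1d2 had r = 0.687 (permutation p = 0.0166) and rho = 0.643 (permutation p = 0.0267), and Cry2 r = 0.673 (permutation p = 0.0172) and rho = 0.720 (permutation p = 0.0109). These 4 passed Benjamini-Hochberg adjustment by r (adjusted p = 0.0386 each) and none by rho (adjusted p = 0.0843 each). The other 5 ran from Per2 at 0.458 and Tef at 0.416 through Cry1 at 0.073 and Clock at -0.050 to Npas2 at -0.509, none past adjustment.

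The count of relations that passed depended on which arrays entered. Without the 2 arrays farthest from the median of Dbp, 11Q-line wild type replicate 1 and 11Q knockin replicate 2, r was 0.598 for Nr1d1, 0.543 for Per3, 0.470 for Nr1d2 and 0.639 for Cry2, and 0 of 9 passed. When single arrays were left out, 4 passed without 118Q knockin replicate 3 or 11Q knockin replicate 3, 3 without 118Q knockin replicate 2, 2 without 118Q knockin replicate 1, 1 without 11Q-line wild type replicate 3, and 0 without any other array. With the 18S signal removed by partial correlation 6 of 9 passed, with r of 0.865 for Nr1d2, 0.844 for Tef, 0.804 for Per3, 0.770 for Nr1d1, 0.768 for Cry2 and 0.676 for Per2. With group means removed 0 of 9 passed, the lowest being Cry2 (r = 0.760, exact permutation p = 0.00772, adjusted p = 0.0694). Over all genes the median r with Dbp was -0.13, and 245 of the other genes had an r as high as that of Cry2, the lowest of the 4.

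Within the 11Q line, over its 6 arrays, Clock and Npas2 correlated negatively with Dbp and the other 7 members positively. Npas2 had r = -0.940 (exact permutation p = 0.00139, adjusted over 9 relations 0.0125) and Nr1d2 r = 0.896 (exact permutation p = 0.00833, adjusted 0.0375). The rho of Npas2 was -1.0, and the p given belong to r. The permutations moved arrays across genotypes within the line. This split by line was not among the tests set out beforehand. Npas2 was dim there, at 1.50 to 2.32, where the lowest mean kept by the filter was 1.58. Its other probe set, dimmer still and under the filter, correlated with the one used at 0.22 over 12 arrays. Cry2 had 0.907, Per3 0.887, Per2 0.822, Tef 0.795 and Clock -0.810, with adjusted p between 0.0594 and 0.0768 by exact permutation. In the 118Q line the same relations gave r between -0.288 and 0.814 and none passed, the lowest adjusted p being 0.50 by exact permutation; Npas2 there had r = 0.630, the other sign. Whether the 2 lines differ in these relations was not tested.

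**Figure D4:**
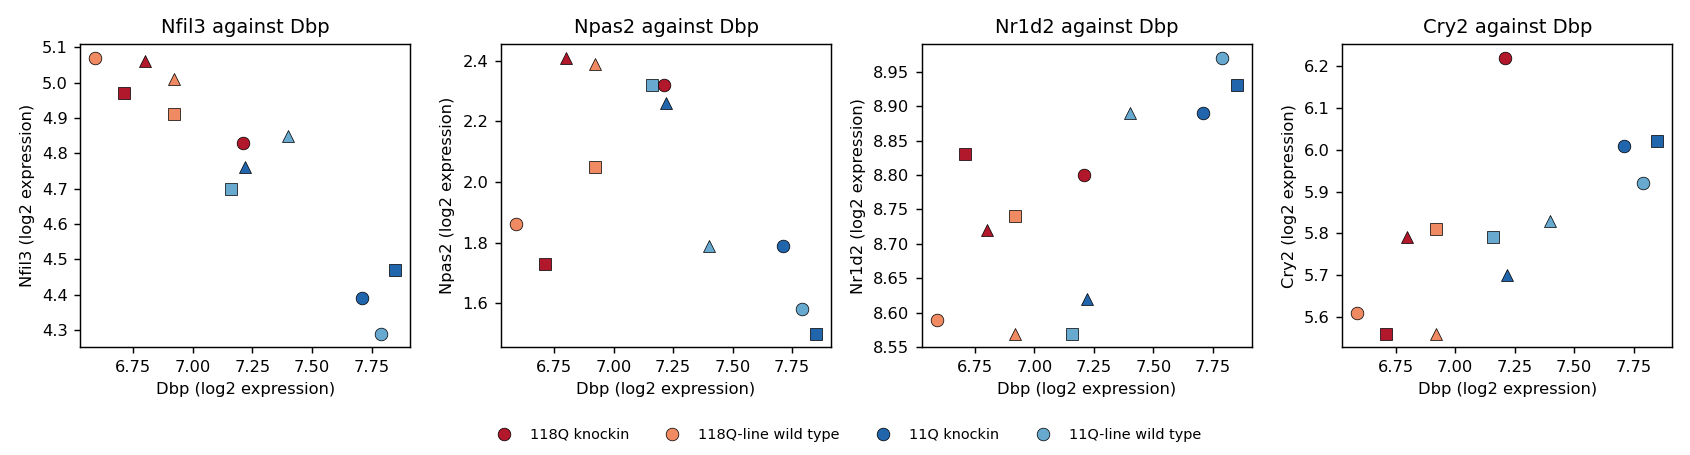
Nfil3, Npas2, Nr1d2 and Cry2 against Dbp (log2 expression on both axes), 1 point per array, coloured by group. Nfil3 falls as Dbp rises over all 12 arrays; in the 11Q line (blue) Npas2 falls while Nr1d2 and Cry2 rise.

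Among all 12671 genes, the one most opposite to Dbp was Nfil3, with r = -0.931 over 12 arrays and -0.804 with group means removed. It read 4.83, 4.97 and 5.06 in 118Q knockin, 5.07, 4.91 and 5.01 in 118Q-line wild type, 4.39, 4.47 and 4.76 in 11Q knockin and 4.29, 4.70 and 4.85 in 11Q-line wild type. The next lowest were Hadhb (-0.904), Golm1 (-0.891), Jkamp (-0.891) and Ebpl (-0.890). The most alike were Cd47 (0.881), Rev1 (0.867), Maco1 (0.854), Mef2d (0.854) and Soga3 (0.853). Of the 8 negative-limb and output genes outside the members, 6 had an r above 0 with Dbp and 2, Per1 (-0.299) and Usp2 (-0.328), below it; the highest was Hlf, the relative of Dbp and Tef, at 0.775. Of 4 positive-limb and RORE-driven genes, 1 lay above 0, Rora at 0.514, and 3 below, Arntl at -0.575 among them. The 15 clock kinases and modifiers lay between -0.778 for Csnk1d, a kinase gene, and 0.614 for Gsk3b, 8 of them above 0. The 10 glucocorticoid and activity-induced genes lay between -0.733 for Nr4a1 and 0.298 for Zbtb16, 3 of them above 0. Over all genes the median r with Dbp was -0.13 and the quartiles -0.42 and 0.23, so most genes lay below 0.

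Spread between mice of a group, set out by line in the plot of SDs, was larger in the 11Q line for 9 of 10 members, against 45.0% of all genes. The ratio of the pooled SDs, 11Q line over 118Q line, was 14.8 for Cry1 (SD 0.36 in the 11Q line and 0.02 in the 118Q line), 5.48 for Tef, 3.10 for Per2, and 0.536 for Cry2, the member that went the other way, against a median of 0.930 over all genes. Cry1 lay at percentile 99.98 of all genes. This difference in spread was not tested.

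**Figure D5:**
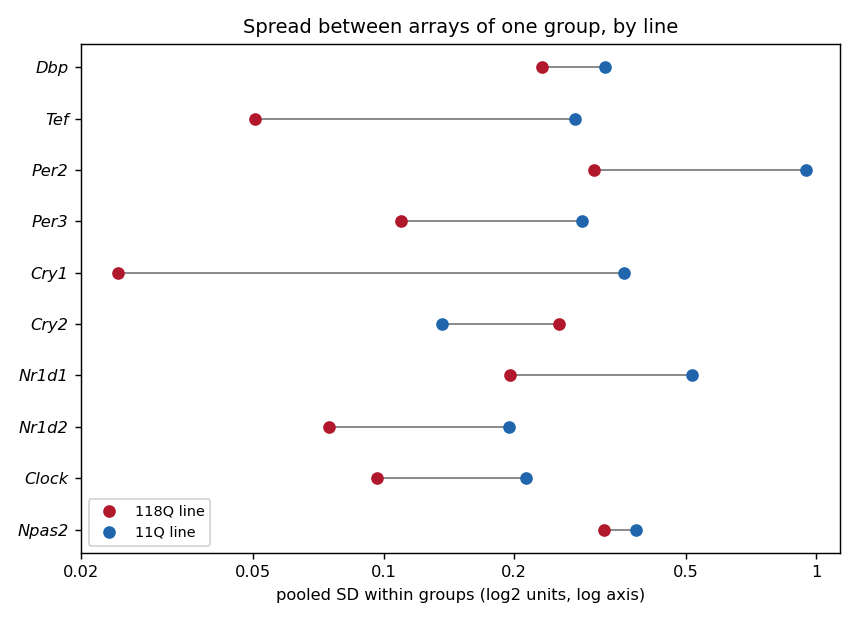
Pooled SD within groups (log2 units, log axis) of each member, 118Q line in red and 11Q line in blue, joined by a line. In all but Cry2 the blue point lies to the right.

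The other clock genes were read as lists. Of 15 negative-limb and output genes (the Per genes, Cry2, Dbp, Tef, Hlf, Nr1d1, Nr1d2 and others), limma called 0 in 118Q knockin, 3 had an unadjusted p below 0.05, all higher, against 18.7% of all genes in either direction, and the median difference was 0.19 against 0.06 over all genes. These were Tef, Per1 and Usp2, a deubiquitinase (0.36 ± 0.16 (SE), adjusted p = 0.259 by limma), and Ciart, a repressor of the clock, came next at 0.54 ± 0.28 (adjusted p = 0.323). Of 7 measured positive-limb and RORE-driven genes, a list that also holds Nfil3, Cry1 and the ROR genes, 0 were called and 0 had an unadjusted p below 0.05. Of 15 clock kinases and modifiers 0 were called and 2 had an unadjusted p below 0.05, both lower, the kinase gene Gsk3b at -0.31 ± 0.11 (adjusted p = 0.151) and Btrc at -0.42 ± 0.16 (adjusted p = 0.194), again against 18.7% of all genes in either direction. Of 10 glucocorticoid and activity-induced genes that share inputs with Per1, 0 were called and 2, against the same 18.7%, had an unadjusted p below 0.05, both higher, Nr4a1 by 0.73 ± 0.22 and Junb by 0.70 ± 0.24, with a median of 0.52 against 0.06 over all genes. In 11Q knockin limma called 0 genes of these 4 lists, and Sgk1 (-0.87 ± 0.27) and Junb (0.72 ± 0.24) had an unadjusted p below 0.05, against 4.23% of all genes. In 118Q knockin against 11Q knockin, where 13.7% of all genes were called, limma called Per1, Nr4a1 (1.28) and Sgk1 (1.34) higher and Rora (-0.55) and Gsk3b (-0.41) lower among the genes of these lists outside the members.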

How the data were processed

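Cerebellar RNA of 12 mice was hybridised 1 array per mouse. The authors deposited log2 values for each probe set, and RMA is the tool named per the submitters' processing notes. The RMA version is not given in the sources here, and the values were used as they stand. The arrays had medians of 2.21 to 2.38, which is low for RMA output, so values are relative levels and those of dim probe sets such as Npas2's are the least certain. The array annotation gave 34958 probe sets 1 gene symbol, 932 several and 9211 none. Probe sets in the dimmest 40% by mean level were dropped (lowest log2 mean kept 1.58), as were control probe sets, and each gene was read by its brightest probe set. With limma 3.58.1, 1 mean per group was fitted over 12 arrays to 12671 genes in R 4.3.3 (8 residual and 4.61 prior degrees of freedom), and a gene was called at a two-sided Benjamini-Hochberg adjusted p below 0.05. The series design text names limma.

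Relations with Dbp were tested over 12 arrays with 100000 permutations, two-sided, within lines over all orders of 6 arrays, and with group means removed over all 1296 orders within groups (scipy 1.17.1, numpy 2.4.6). A second fit tested all 27060 probe sets singly. The members, the lists and the tests were chosen with earlier results of these data known. All members, Per1, Arntl and Cacna1a are named. So are, of each clock list, up to 4 other genes by smallest p in the 118Q knockin effect and up to 2 in the 11Q knockin effect, and the 5 genes with the highest and the 5 with the lowest r with Dbp, predicted genes passed over. The steps were tested on simulated data. Alternatives were other filters, probe set rules, normalizations, variance models, covariates, a replicate block and leaving out arrays.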

Additional observations from a re-analysis of the deposited data

How the results depend on the processing

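The number of arrays, 3 in a group, limits the precision. Of 1926 values recomputed, 122 changed sign, 59 of them when a single array was left out; none of the 122 passed a test (lowest unadjusted p 0.0662), and of the values as reported only that of Per1 had. No member was called by limma in either knockin comparison, in their difference or between the wild types under any alternative run, apart from the dimmer Tef probe set given above. The share of all genes called in these runs reached 24.7%, for the 118Q knockin effect with array weights. In 118Q against 11Q knockin 0 members were called with the mean of probe sets (13.3% of all genes) and with only the groups compared (12.3%). With the 18S signal (0%) and with Ttr (10.5%) as covariates 0 were called too. With array weights 3 were called (48.3% of all genes), and 2 with the wild type replicates 3 of both lines dropped (19.7%). Leaving out single arrays gave 0 to 2, against 2.52% to 17.9% of all genes. In the added comparison of lines 0 were called with the 18S signal (0.00789% of all genes) and 2 with the wild type replicates 3 of both lines dropped (11.7%). Leaving out single arrays gave 0 to 2 there, against 0.45% to 12.9% of all genes. Members at an unadjusted p below 0.05 in the 118Q knockin effect were 0 with every probe set on its own, with arrays centred on their median, with the 18S signal and with the wild type replicates 3 of both lines dropped, and 0 to 1 leaving out single arrays. In the 11Q knockin effect such members were 0 to 1 leaving out single arrays, against 2.35% to 6.36% of all genes. For the difference of effects they were again 0 to 1, against 7.54% to 15.9%. In 118Q against 11Q knockin they were 1 with the 18S signal (12.1% of all genes) and 1 with Ttr (28.9%). Leaving out single arrays gave 1 to 3, against 23.3% to 33.5% of all genes. Between the wild types they were 3 with the mean of probe sets (3.24% of all genes), 2 with array weights (13.7%) and 0 with the 18S signal (3.96%). With the wild type replicates 3 of both lines dropped they were 2 (7.86%). Leaving out single arrays gave 1 to 2, against 2.24% to 7.13% of all genes. Relations of Dbp passing adjustment were 4 as reported, 0 with deviations from the group means, 0 without the 2 farthest arrays, 6 with the 18S signal removed by partial correlation and 0 to 4 leaving out single arrays. Except where fewer arrays or genes entered, the cause was not tested. The array weights stopped before full convergence, Npas2 has no value with the lowest 60% of probe sets removed, and a fit of only the groups compared is the same fit for the difference of effects.

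Replicate numbers did not pair the arrays: same-numbered arrays of 2 groups correlated at -0.26 to 0.45 in their deviations from the group means, and 2 of 12 arrays correlated best with their own number. With the replicate block 1 member had an unadjusted p below 0.05 in the 11Q knockin effect, against 4.18% of all genes. Dbp kept -0.69 in 118Q against 11Q knockin (adjusted p = 0.0452 by limma).

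With arrays centred on their median these values changed sign: for the 118Q knockin effect Cry1 0.017, for the 11Q knockin effect Nr1d2 0.028 and Clock 0.011, for 118Q against 11Q knockin Per2 -0.0013, for the r with Dbp Clock 0.010. With array weights these values changed sign: for the 118Q knockin effect Dbp -0.038 and Clock 0.071, for the 11Q knockin effect Nr1d2 0.040, for the difference of effects Nr1d1 0.048, Cry2 -0.032 and Clock 0.083. With the 18S signal as covariate these values changed sign: for the 118Q knockin effect Per2 -1.25, Per3 -0.049, Nr1d1 -0.33, Nr1d2 -0.054 and Clock 0.22, for the 11Q knockin effect Clock 0.029 and Npas2 0.077, for the difference of effects Per2 -0.90, Per3 -0.11, Dbp 0.073, Nr1d2 -0.017, Cry1 -0.13 and Clock 0.19, for 118Q against 11Q knockin Per2 -2.03, Tef -0.21, Cry1 -0.22, Cry2 0.16, Clock 0.22 and Per1 -0.54, for 118Q-line against 11Q-line wild type Cry1 -0.094 and Clock 0.031, for 118Q line against 11Q line Cry1 -0.16, Cry2 0.023 and Clock 0.12. With Ttr as covariate these values changed sign: for the 118Q knockin effect Cry1 0.015, for the 11Q knockin effect Per3 -0.015, Dbp -0.039, Tef -0.068, Cry2 -0.057, Clock 0.11 and Npas2 0.12, for the difference of effects Dbp 0.16, Nr1d1 0.047 and Npas2 -0.089, for 118Q against 11Q knockin Nr1d2 0.046 and Cry2 0.024, for 118Q-line against 11Q-line wild type Cry1 -0.016. When the wild type replicates 3 were dropped these values changed sign: for the 118Q knockin effect Clock 0.021, for the 11Q knockin effect Per2 0.043 and Nr1d2 0.041, for the difference of effects Dbp 0.039, Nr1d1 0.064 and Clock 0.055. With probe sets averaged these values changed sign: for the 11Q knockin effect Nr1d2 0.030, for the difference of effects Per3 -0.044, for 118Q-line against 11Q-line wild type Clock 0.066, for 118Q line against 11Q line Per2 0.018, Tef 0.046 and Clock 0.026. With quantile normalization these values changed sign: for the 11Q knockin effect Nr1d2 0.028 and Clock 0.015. Leaving out the 2 arrays farthest from the median of Dbp these values changed sign: for the r with Dbp Clock 0.012. Leaving out single arrays, the sign changed within these ranges of the 118Q knockin effect: Dbp -0.055 to 0.20, Cry1 -0.021 to 0.0041, Clock -0.091 to 0.021, Npas2 -0.073 to 0.27. Likewise for the 11Q knockin effect: Per2 -0.56 to 0.52, Per3 -0.025 to 0.33, Dbp -0.0048 to 0.33, Tef -0.099 to 0.26, Nr1d2 -0.12 to 0.097, Cry1 -0.34 to 0.047, Clock -0.17 to 0.10, Npas2 -0.25 to 0.16. Likewise for the difference of effects: Per2 -0.18 to 0.89, Per3 -0.11 to 0.24, Dbp -0.23 to 0.10, Nr1d1 -0.50 to 0.14, Cry1 -0.055 to 0.33, Cry2 -0.052 to 0.28, Clock -0.15 to 0.12, Npas2 -0.11 to 0.31. Likewise for 118Q against 11Q knockin: Per2 -0.58 to 0.50, Tef -0.078 to 0.29, Nr1d2 -0.12 to 0.033, Cry1 -0.0020 to 0.37, Cry2 -0.24 to 0.092, Clock -0.24 to 0.031. Likewise for 118Q-line against 11Q-line wild type: Cry1 -0.15 to 0.17. Likewise for the r with Dbp: Cry1 -0.059 to 0.18, Clock -0.14 to 0.13. Likewise for 118Q line against 11Q line: Per2 -0.49 to 0.051, Tef -0.12 to 0.066.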
